A study of Mus musculus with 6 samples.

Results

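Messenger RNA of 10 genes that encode the enzymes of prostaglandin and leukotriene synthesis was examined in mouse spinal cord after contusion. The members are the rows of the read count table whose gene symbol is Ptgs1, Ptgs2, Ptges, Ptgds, Hpgds, Ptgis, Alox5, Alox5ap, Ltc4s or Lta4h, 10 of 56859 genes, and all 10 had enough counts to be tested. Every library came from spinal cord of a wild-type mouse with a T10 contusion, labelled as collected at 6 weeks. The injury group (n = 3) received no AZ876, and the labels' protocols give solvent injections to control animals. The injury + AZ876 group (n = 3, called AZ876 here) was given intraperitoneal AZ876, which activates the liver X receptors (LXR), at 5 mg/kg once a day for 1 week. No strain, age or sex is named in the labels, no uninjured group was analysed here, and nothing states that the 3 samples of a group came from separate animals.

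Prostaglandins and leukotrienes are lipid mediators made from arachidonic acid, which phospholipases release from membranes. The cyclooxygenases turn it into prostaglandin H2, and terminal synthases then make prostaglandin E2, prostaglandin D2 or prostacyclin. In the other branch, arachidonate 5-lipoxygenase, helped by its activating protein, makes leukotriene A4, which is converted to leukotriene B4 or leukotriene C4. In the central nervous system prostaglandin D2 synthase of the lipocalin type is made by oligodendrocytes and by cells of the meninges, whereas the leukotriene branch is known mainly from myeloid cells. LXR are nuclear receptors that respond to oxidised cholesterol and bind DNA as partners of the retinoid X receptors.

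The treatment targets a nuclear receptor, so the direct repeat that LXR bind was searched for in exact form. The search covered the sequence just before the RefSeq start of each gene. RefSeq windows of 250 bases before the start (build GRCm38.p6) were found for 8 of the 10 members, Ptgis and Alox5ap being without one. The windows of 5 members are printed 5′ to 3′ on the strand of the gene: both cyclooxygenases, both prostaglandin D2 synthases and Ptges. Capitals mark matches to any of the motifs searched on both strands. They lie at chr2:36230176-36230425 (plus strand) for Ptgs1, chr1:150099781-150100030 (plus) for Ptgs2, chr2:25469750-25469999 (minus) for Ptgds, chr6:65144731-65144980 (minus) for Hpgds and chr2:30903298-30903547 (minus) for Ptges.
Ptgs1: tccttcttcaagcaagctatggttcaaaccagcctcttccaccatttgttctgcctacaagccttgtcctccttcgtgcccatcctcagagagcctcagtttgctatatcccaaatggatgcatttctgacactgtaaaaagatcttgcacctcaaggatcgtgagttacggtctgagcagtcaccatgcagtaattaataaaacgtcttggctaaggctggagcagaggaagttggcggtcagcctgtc
Ptgs2: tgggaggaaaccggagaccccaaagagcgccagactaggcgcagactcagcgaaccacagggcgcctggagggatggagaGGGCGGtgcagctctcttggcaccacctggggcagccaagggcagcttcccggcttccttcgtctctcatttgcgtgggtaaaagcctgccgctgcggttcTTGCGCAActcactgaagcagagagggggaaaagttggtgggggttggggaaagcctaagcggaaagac
Ptgds: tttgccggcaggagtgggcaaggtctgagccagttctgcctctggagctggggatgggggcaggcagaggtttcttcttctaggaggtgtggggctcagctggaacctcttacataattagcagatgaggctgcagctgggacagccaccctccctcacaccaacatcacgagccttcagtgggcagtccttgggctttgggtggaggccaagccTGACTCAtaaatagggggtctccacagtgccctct
Hpgds: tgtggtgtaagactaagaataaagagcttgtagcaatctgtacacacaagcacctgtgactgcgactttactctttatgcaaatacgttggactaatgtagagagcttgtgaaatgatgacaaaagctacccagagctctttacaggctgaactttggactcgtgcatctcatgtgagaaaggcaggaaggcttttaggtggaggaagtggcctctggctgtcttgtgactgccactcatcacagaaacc
Ptges: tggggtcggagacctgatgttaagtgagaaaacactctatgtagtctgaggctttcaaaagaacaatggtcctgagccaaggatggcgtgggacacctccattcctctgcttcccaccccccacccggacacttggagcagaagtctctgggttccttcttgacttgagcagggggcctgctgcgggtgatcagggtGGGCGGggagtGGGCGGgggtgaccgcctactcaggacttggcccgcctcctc

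The LXR direct repeat, 2 copies of AGGTCA on the same strand with 4 bases of any kind between them, was in 0 of the 8 windows and in 0.0152% of all 32851 windows of this length. At that rarity 0 of 8 is nearly certain for any genes, so the search cannot tell whether LXR bind near these. A single AGGTCA, which is part of the repeat, was also in 0 of 8, against 14% of all windows. The GC box GGGCGG was in 3 of 8 windows (Ptgs2, Ptges and Alox5), against 32.7% of all. In Ptges it occurred 2 times, starting 53 and 42 bases before the RefSeq start. A RefSeq start can lie inside the span listed for a gene below, as it appears to for Ptges. The AP-1 motif TGACTCA was in the Ptgds window, 35 bases before the start, and in 4.46% of all windows. The C/EBP motif TTGCGCAA was in the Ptgs2 window, 69 bases before the start, and in 0.164% of all. The TATA box TATAAA (12.4% of all windows) and the cAMP response element TGACGTCA (1.55%) were in 0 of 8. A match, or the lack of one, describes exact letters in this window only.

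Total counts per library ran from 14067649 to 20211175. On the first principal component of all genes tested, which held 55.4% of the variance, injury replicate 3 (6.31) and AZ876 replicate 1 (−7.17) stood between the other 2 injury libraries (−40.63 and −52.26) and the other 2 AZ876 libraries (44.24 and 49.52). Results below are given without each library where that changes them.

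The 10 genes spanned more than 3 orders of magnitude in level, with Ptgds far above the rest. Levels are counts scaled to library size (CPM), and to compare genes they were divided by exon length in kilobases. Ptgds had 1078 to 2026 CPM per kilobase in the 6 libraries, a mean 160 times that of Lta4h, the next gene, which had 8.25 to 9.74 CPM per kilobase. Of all counts on the 10 genes, Ptgds took 90.9% to 94.1% in each library, and the 10 genes together took 0.188% to 0.359% of a library.

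Below Ptgds the order on the per-kilobase scale was Lta4h, Ptgis, Hpgds, Ptgs1, Ptges, Alox5ap, Ptgs2, Ltc4s and Alox5. Ptgis (6.84 to 9.40 CPM per kilobase) was above Hpgds (4.80 to 12.7) in 3 of 6 libraries, and Hpgds was above Ptgs1 (5.57 to 6.98) in 3 of 6, so these neighbours had no fixed order. Ltc4s (0.531 to 2.02) and Alox5 (0.681 to 1.22), the genes of lowest level, were likewise ordered in 3 of 6 libraries each way. Ptgs1 was above Ptges (1.80 to 7.20) and Ptgs2 (0.909 to 2.77) above Ltc4s in 5 of 6. Lta4h was above Ptgis, Ptges above Alox5ap (1.74 to 5.42) and Alox5ap above Ptgs2 in 6 of 6.

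**Figure D1:**
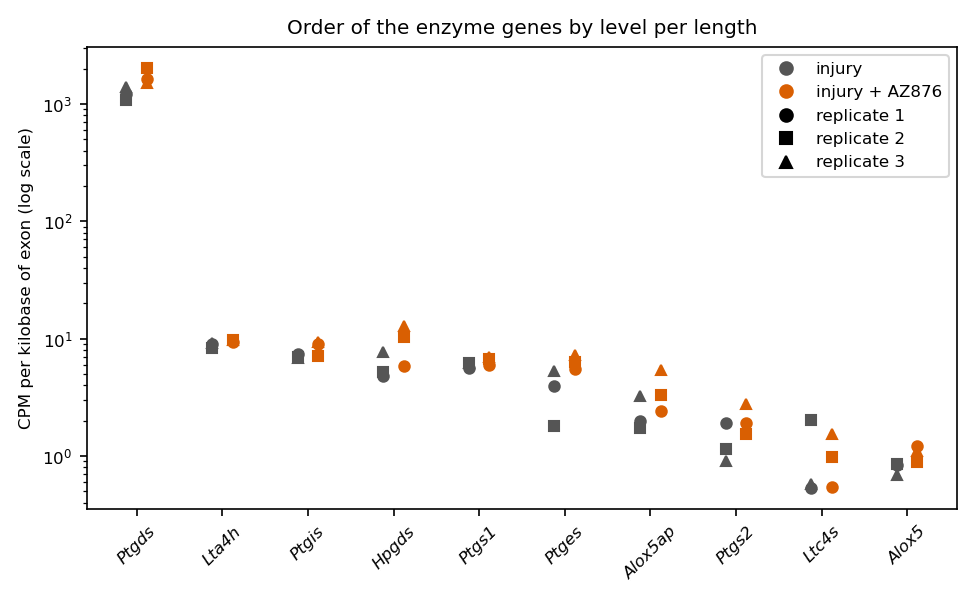
CPM per kilobase of exon (log axis) of the 10 genes in order of mean level, 1 point per library, grey for injury and orange for AZ876, with the replicate given by the symbol. Ptgds sits at 1078 to 2026 in every library, and no other gene exceeds 12.7.

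The comparison of AZ876 with injury asks whether these genes differed at 6 weeks between mice given AZ876 for 1 week after the contusion and mice not given it. On average 9 of the 10 had a higher level with AZ876, with a median log2 fold change of 0.46, where 50.5% of the 17599 genes tested had a positive value and their median was 0.00. None passed the test: the quasi-likelihood test of edgeR, adjusted by Benjamini-Hochberg over all genes, called 0 of 10, and 0% of all genes. DESeq2, which called 1.01% of all genes, and limma-voom also called 0 of 10. At an unadjusted p under 0.05 edgeR had 2 members, Ptgds and Hpgds, against 14.7% of all genes. The 3 AZ876 libraries lay above all 3 injury libraries for 4 members, Ptges, Ptgds, Alox5 and Lta4h, where groups did not overlap for 18.8% of all genes, 10.2% on the higher side. Lta4h was lost from these with DESeq2 size factors, which left 3. In these tissue samples, more cells of a type and more RNA per cell cannot be told apart.

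**Figure D2:**
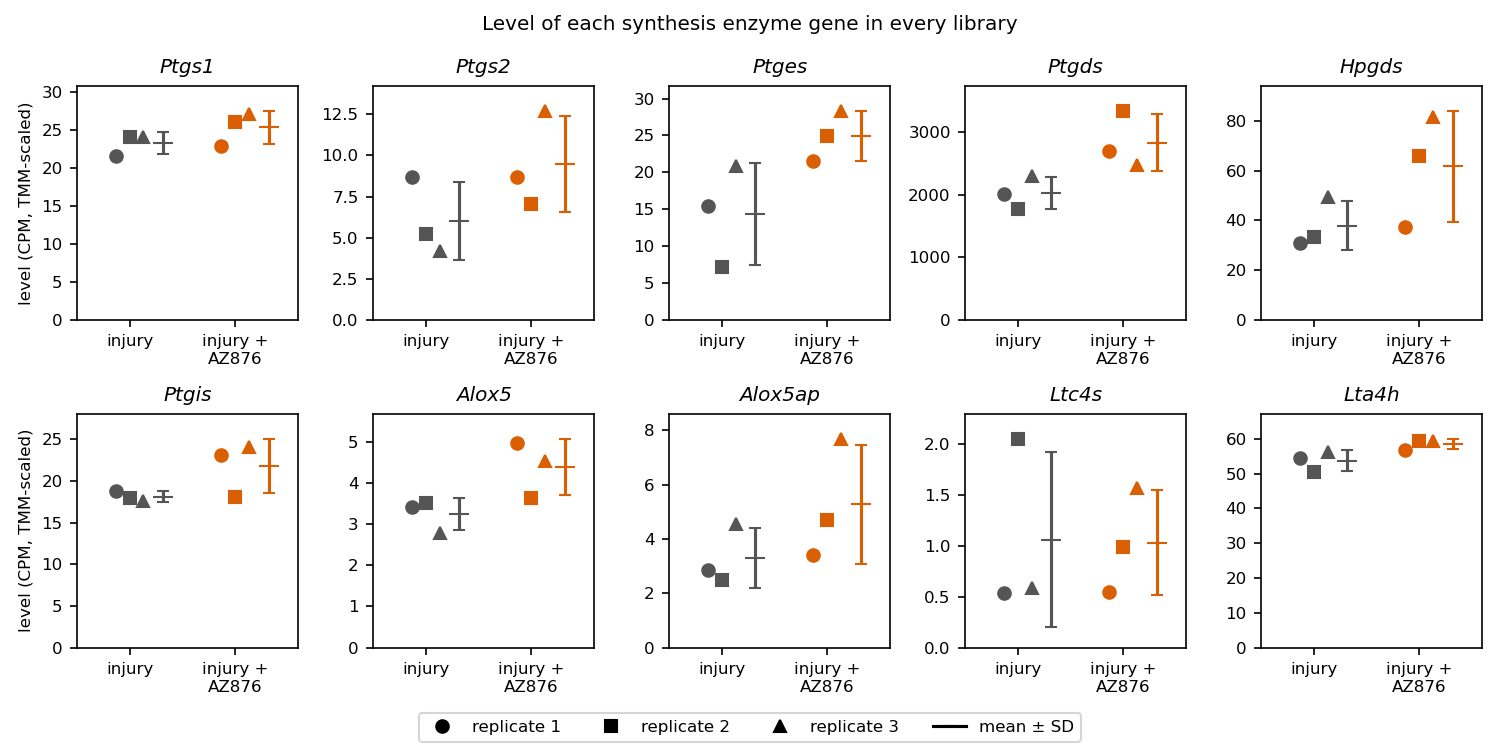
Level in CPM of each gene in every library, with the mean and SD of each group of 3 beside the points; axes start at 0. The groups are separate for Ptges, Ptgds, Alox5 and, by a margin lost with DESeq2 size factors, Lta4h, and overlap for the other 6 genes.

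The cyclooxygenases come first in the pathway. Ptgs1 encodes cyclooxygenase-1, the form present in many resting cells, and is listed as ENSMUSG00000047250 on chromosome 2 from 36120438 to 36142284, plus strand, in a build the table does not name. Its level was 21.6, 24.1 and 24.1 CPM in injury replicates 1, 2 and 3 and 23.0, 26.1 and 27.1 CPM in AZ876 replicates 1, 2 and 3. The groups overlapped, and the 6 values lay close together. The difference was 0.13 ± 0.13 on the log2 scale (SE, n = 3 each; edgeR adjusted p = 0.635).

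Ptgs2 encodes cyclooxygenase-2, the form induced by inflammatory stimuli (ENSMUSG00000032487, chromosome 1, 149975782 to 149983978, plus strand). It stood at 8.66, 5.20 and 4.16 CPM with injury and at 8.69, 7.03 and 12.7 CPM with AZ876. AZ876 replicate 3 was the highest, and injury replicate 1 was nearly as high as AZ876 replicate 1. The means were 6.01 ± 2.35 and 9.47 ± 2.92 CPM (SD, n = 3 each), and the log2 fold change was 0.65 ± 0.34 (SE; edgeR adjusted p = 0.373). Without AZ876 replicate 3 the log2 fold change was 0.38, and without injury replicate 1 it was 1.02.

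Ptgs1 had between 2.13 and 5.76 times as many counts as Ptgs2 in a library. The log2 ratio of their counts was 1.32, 2.20 and 2.53 in the injury libraries and 1.40, 1.89 and 1.09 in the AZ876 libraries. The groups overlapped, with a difference of −0.56 and a two-sided exact permutation p of 0.3, or 0.9 after Benjamini-Hochberg adjustment over the 3 ratios examined. With 3 against 3 libraries the smallest p this test can give is 0.1.

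Among the terminal synthases, Ptges encodes microsomal prostaglandin E synthase-1, the inducible enzyme that works with cyclooxygenase-2 (ENSMUSG00000050737, chromosome 2, 30779483 to 30819875, minus strand). Its level was 15.4, 7.09 and 20.8 CPM with injury and 21.5, 24.9 and 28.3 CPM with AZ876. All AZ876 libraries were above all injury libraries, by a small margin between injury replicate 3 and AZ876 replicate 1, and injury replicate 2 was far below the rest. The mean was 14.4 ± 6.91 and 24.9 ± 3.39 CPM (SD, n = 3 each), 1.73 times as high with AZ876. On the log2 scale the difference was 0.79 ± 0.35 (SE), with adjusted p = 0.343 in edgeR and p = 0.1 in the exact permutation test. It was 0.46 without injury replicate 2 and 1.15 without injury replicate 3.

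Ptgds encodes the lipocalin-type prostaglandin D synthase, a secreted protein that also carries small lipophilic molecules (ENSMUSG00000015090, chromosome 2, 25356721 to 25360058, minus strand). It had 2012, 1777 and 2297 CPM with injury and 2695, 3342 and 2479 CPM with AZ876. The groups did not overlap, and AZ876 replicate 2 was the highest library. The means were 2029 ± 261 and 2838 ± 449 CPM (SD, n = 3 each), a difference of 0.48 ± 0.17 on the log2 scale (SE). In edgeR its unadjusted p of 0.022 was the lowest among the 10 genes, and it was 0.330 after adjustment. Without AZ876 replicate 2 the log2 fold change was 0.35 and the unadjusted edgeR p was 0.11. That p was 0.0583 and 0.0845 without injury replicates 1 and 2, and stayed under 0.05 on omitting each of the others.

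Hpgds encodes the haematopoietic prostaglandin D synthase, which makes the same product in microglia, and in mast cells and other blood-derived cells (ENSMUSG00000029919, chromosome 6, 65094277 to 65121892, minus strand). Its level was 30.8, 33.5 and 49.4 CPM with injury and 37.5, 66.0 and 81.6 CPM with AZ876. The groups overlapped because AZ876 replicate 1 was below injury replicate 3, while the other 2 AZ876 libraries were the highest. The means were 37.9 and 61.7 CPM, with coefficients of variation of 26.5% and 36.2% (n = 3 each), and the log2 fold change was 0.71 ± 0.30 (SE). In edgeR the unadjusted p was 0.0468 and the adjusted p 0.335. The unadjusted edgeR p rose to between 0.108 and 0.168 without injury replicate 1 or 2 or AZ876 replicate 2 or 3. It stayed under 0.05 on omitting either of the other libraries. Left out in turn, AZ876 replicate 3 gave a log2 fold change of 0.45 and AZ876 replicate 1 gave 0.96. In that last case edgeR gave an adjusted p of 0.0601, the closest to the threshold that a member came under the alternatives run, and called 0 members and 1.99% of all genes.

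Ptgds had between 30.4 and 71.7 times as many counts as Hpgds in a library. The log2 ratio of Hpgds to Ptgds was −6.03, −5.73 and −5.54 with injury and −6.16, −5.66 and −4.92 with AZ876, so the groups overlapped. The difference was 0.18 (exact permutation p = 0.8, adjusted over the 3 ratios p = 1.0), and it was −0.15 without AZ876 replicate 3.

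Ptgis encodes prostacyclin synthase, an enzyme of vessel walls (ENSMUSG00000017969, chromosome 2, 167033725 to 167082524, minus strand). It had 18.8, 17.9 and 17.6 CPM with injury and 23.1, 18.1 and 24.1 CPM with AZ876. The injury libraries were nearly equal, with a coefficient of variation of 3.54%, and AZ876 replicate 2 fell among them. The groups differed by 0.27 ± 0.15 on the log2 scale (SE, n = 3 each; edgeR adjusted p = 0.405). Antisense genes overlap Ptgis, Hpgds, Ptgs1, Alox5ap and Ltc4s in the table, and whether the counting used strand is not given, but each of these antisense genes had few counts over the 6 libraries. That was 94 for the largest, at Ptgis with 2003 counts, and 26 at Ltc4s with 108 counts.

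The leukotriene genes were low apart from Lta4h. Alox5 encodes arachidonate 5-lipoxygenase (ENSMUSG00000025701, chromosome 6, 116387038 to 116438139, minus strand). Its level was 3.42, 3.52 and 2.80 CPM with injury and 4.99, 3.65 and 4.54 CPM with AZ876. The groups did not overlap, but AZ876 replicate 2 and injury replicate 2 differed by less than their 95% exact Poisson counting intervals (2.73 to 4.79 and 2.73 to 4.47 CPM, from 52 and 67 counts). Such intervals cover counting error only. For Alox5 the log2 fold change was 0.43 ± 0.24 (SE, n = 3 each; edgeR adjusted p = 0.393).

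Alox5ap encodes the membrane protein that presents arachidonic acid to arachidonate 5-lipoxygenase (ENSMUSG00000060063, chromosome 5, 149201577 to 149224963, plus strand). It had 2.84, 2.47 and 4.55 CPM with injury and 3.42, 4.71 and 7.69 CPM with AZ876. As for Hpgds, AZ876 replicate 3 was the highest and injury replicate 3 stood above AZ876 replicate 1. The means were 3.29 ± 1.11 and 5.27 ± 2.19 CPM (SD, n = 3 each), and the log2 fold change was 0.69 ± 0.37 (SE; edgeR adjusted p = 0.389). This value was 0.31 without AZ876 replicate 3 and 0.99 without injury replicate 3.

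Ltc4s encodes leukotriene C4 synthase, which joins leukotriene A4 to glutathione (ENSMUSG00000020377, chromosome 11, 50127288 to 50129443, minus strand). It had 11, 39 and 9 counts with injury and 8, 14 and 27 with AZ876, or 0.538, 2.05 and 0.585 CPM and 0.547, 0.984 and 1.57 CPM. Injury replicate 2 was above all the others. Its counting interval (1.46 to 2.80 CPM) did not reach those of injury replicate 1 (0.269 to 0.963) and injury replicate 3 (0.268 to 1.11). Between the groups the log2 fold change was −0.03 ± 0.63 (SE, n = 3 each; edgeR adjusted p = 0.986), a value near 0. It turned positive when injury replicate 2 was left out (0.89), and likewise on leaving out the first (0.27) or the second AZ876 library (0.01).

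Lta4h encodes leukotriene A4 hydrolase, which makes leukotriene B4 and is found in most cells (ENSMUSG00000015889, chromosome 10, 93289273 to 93320737, plus strand). Its level was 54.6, 50.4 and 56.2 CPM with injury and 56.8, 59.4 and 59.4 CPM with AZ876. The groups did not overlap here, though they did with DESeq2 size factors, and the whole range was narrow: the means were 53.7 ± 3.01 and 58.5 ± 1.53 CPM (SD, n = 3 each), 1.09 times as high with AZ876. This was a difference of 0.12 ± 0.10 on the log2 scale (SE; edgeR adjusted p = 0.552). Ltc4s and Lta4h share leukotriene A4 as substrate, and the log2 ratio of their counts was −6.60, −4.60 and −6.51 with injury and −6.61, −5.87 and −5.21 with AZ876. It differed by 0.01 between the groups (exact permutation p = 1.0, adjusted p = 1.0).

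**Figure D3:**
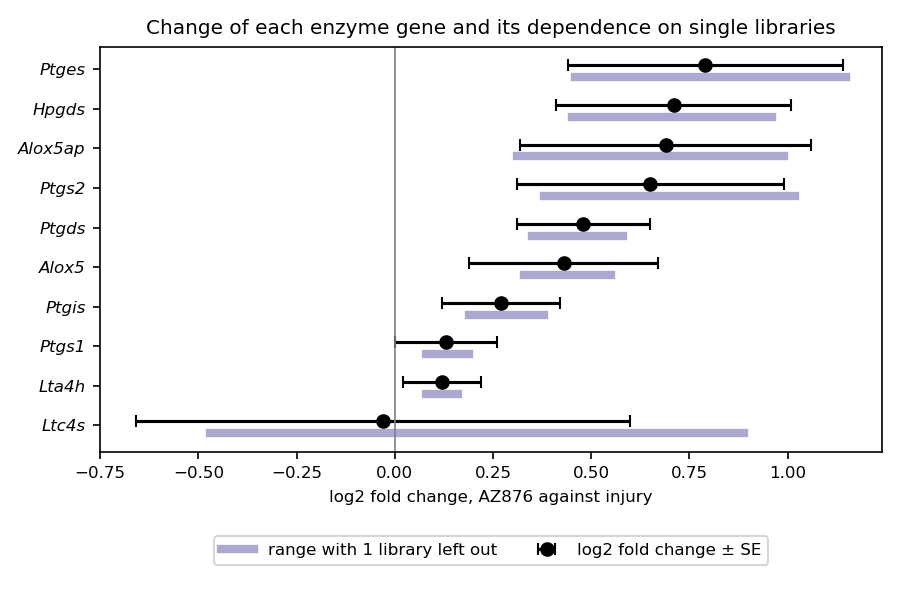
Log2 fold change of AZ876 against injury for each gene (point, with its SE) and the range obtained when any 1 library is left out (bar). Only Ltc4s crosses 0 when libraries are left out, from −0.47 to 0.89, and the other 9 genes stay above 0.

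The members did not vary in the same way across libraries. AZ876 replicate 3 was the highest library for 6 of the 10 genes, and no gene was lowest in an AZ876 library. Hpgds and Alox5ap shared an order, with injury replicates 1 and 2 lowest, AZ876 replicate 1 and injury replicate 3 between, and AZ876 replicates 2 and 3 highest. On the log2 CPM scale centred on the mean of the 6 libraries, Hpgds went from −0.60 in injury replicate 1 to 0.81 in AZ876 replicate 3, and Alox5ap from −0.67 in injury replicate 2 to 0.93 in AZ876 replicate 3. Of the 4 genes lowest in injury replicate 2, Ptges was furthest below its mean there (−1.34). Of the 3 genes lowest in injury replicate 3, Ptgs2 was (−0.79). Ptgs1 and Lta4h stayed within −0.17 and 0.16 in all libraries.

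Markers of several cell types moved with the groups in the same libraries, and their part in the results was not tested. All 7 markers listed for infiltrating macrophages had positive log2 fold changes. Their summed level was 2152 to 4792 CPM with injury and 3425 to 10209 CPM with AZ876, overlapping between injury replicate 3 and AZ876 replicate 1 as Hpgds and Alox5ap did. Over all libraries Lyz2 (285569 counts) and Gpnmb (155390) had the most counts in this sum, and Ccr2 had the fewest, 882. Whether resident cells also carried these markers was not tested. All 8 markers of microglia and macrophages were also higher on average, at 1422 to 2039 CPM with injury and 1634 to 2869 CPM with AZ876. The 8 meningeal fibroblast markers, all higher on average, summed to 584 to 1668 CPM with injury and 1867 to 2823 CPM with AZ876, without overlap, and the lowest value was in injury replicate 2, as for Ptges. The same held for the Schwann cell markers, 3 of 3 tested higher on average (620 to 1419 and 1709 to 2072 CPM), and for all 4 T cell markers (2.84 to 6.89 and 9.44 to 14.8 CPM). The neutrophil markers, 4 of 4 tested higher on average, followed another order. In replicate order they summed to 21.5, 31.0 and 44.1 CPM with injury and 54.6, 96.1 and 34.4 CPM with AZ876. Astrocyte markers (8773 to 12362 and 8534 to 14267 CPM) overlapped between the groups. So did those of pericytes and smooth muscle (253 to 368 and 350 to 397 CPM). None of these markers was called. The infiltrating macrophage markers were not alone in having injury replicate 3 above AZ876 replicate 1 and AZ876 replicate 3 highest. The summed markers of microglia and macrophages, of astrocytes and of endothelial cells did too.

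Ptgds is also known from oligodendrocytes, whose mature markers were on average lower with AZ876, with 0 of 6 called. They summed to 25120 to 27417 CPM with injury and 19471 to 24249 CPM with AZ876, without overlap, and 5 of 6 had a negative log2 fold change. Choroid plexus, another source of Ptgds, was hardly represented: Otx2 had 0 counts in every library and the 4 markers summed to at most 11.4 CPM. Mast cells are a source of Hpgds and Ltc4s. Their 6 markers were too low to be tested and summed to 0.105 to 0.342 CPM with injury and 1.22 to 3.09 CPM with AZ876, without overlap, with 5 counts of Fcer1a and 9 of Ms4a2 in all. The 5 endothelial markers (235 to 279 and 261 to 328 CPM) and the 5 platelet markers (18.3 to 78.4 and 42.8 to 60.9 CPM) overlapped between the groups. All 5 neuron markers were lower on average with AZ876, at 572 to 1524 CPM against 1262 to 1961 CPM with injury.

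**Figure D4:**
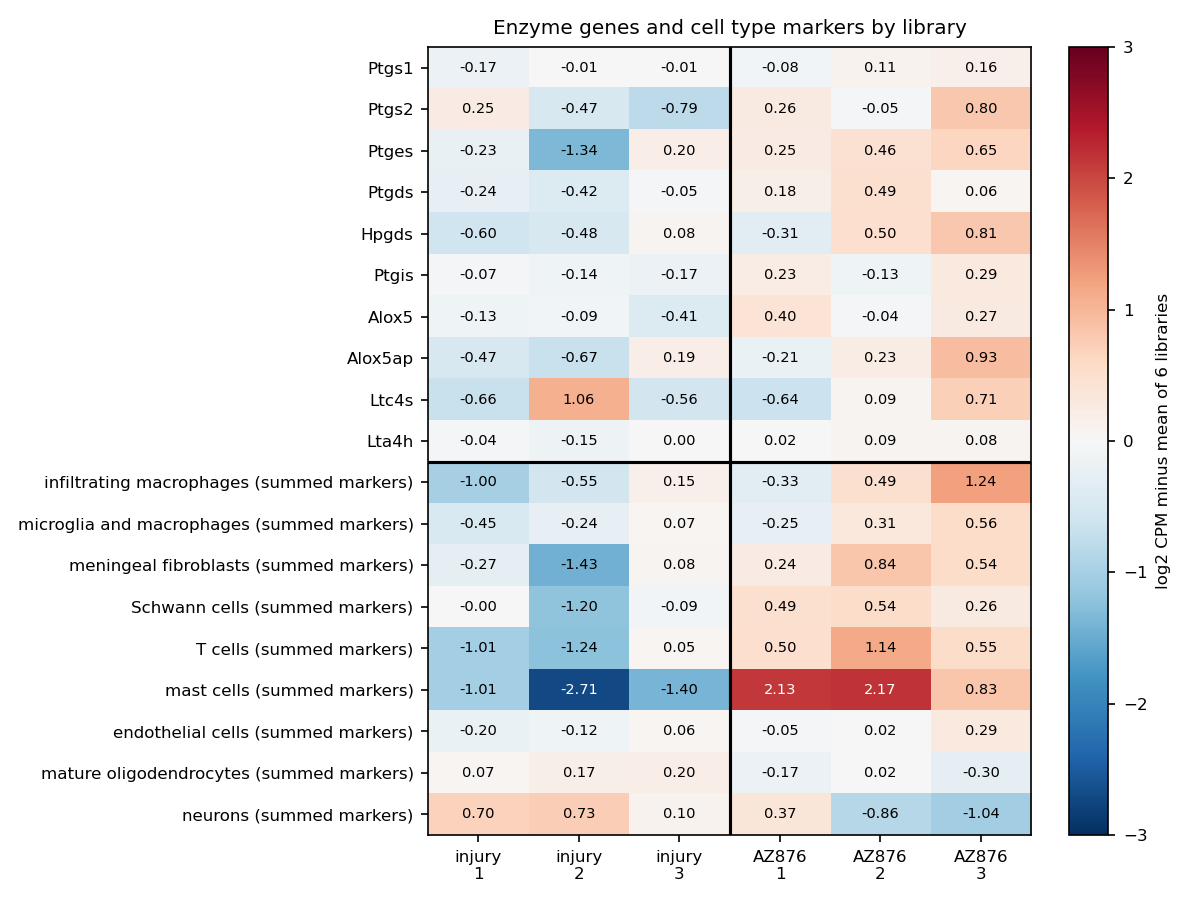
Log2 CPM minus the mean of the 6 libraries (colour and number) for the 10 genes and for the summed markers of the cell types listed, 1 column per library. Hpgds and Alox5ap are highest in AZ876 replicate 3 (0.81 and 0.93). So are the markers of infiltrating macrophages (1.24), microglia and macrophages (0.56) and endothelial cells (0.29). Ptges is lowest in injury replicate 2 (−1.34), as are the meningeal fibroblast (−1.43), Schwann cell (−1.20), T cell (−1.24) and mast cell markers (−2.71).

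For each gene the 2 genes of most similar pattern were taken from 12427 genes with a mean of at least 5 CPM, by the root mean square difference of centred log2 CPM over the 6 libraries. For Hpgds they were Mmp19, a matrix metalloproteinase gene, at 0.05, and Arhgap9 at 0.06. Mmp19 stood at 12.7, 13.2 and 21.3 CPM with injury and 15.9, 28.8 and 35.8 CPM with AZ876. For Alox5ap they were Slc11a1, a metal transporter gene of macrophages, at 0.07 and Runx1, a transcription factor gene of blood cells, at 0.09. Slc11a1 stood at 50.6, 50.5 and 85.3 CPM with injury and 65.3, 94.8 and 146 CPM with AZ876.

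For Ptges the closest genes were Metrnl (0.05) and Nfya (0.07), and for Ptgds they were Cdh5, the gene of vascular endothelial cadherin, and Wnt5a, a secreted signalling protein gene (0.06 each). Cdh5 stood at 46.2, 40.2 and 54.4 CPM with injury and 67.2, 83.9 and 59.7 CPM with AZ876. For Ptgs2 they were F13a1, the gene of coagulation factor XIII chain A, at 0.12 and Megf6 at 0.21. For the remaining genes the closest were Rps3 and Os9 for Ptgs1, Cbfa2t3 and Pigg for Ptgis, Timp3 and Ace for Alox5, Tmem37 and Zc3h12a for Ltc4s, and Arl6ip5 and Csnk2a1 for Lta4h, at 0.02 to 0.20. With 6 libraries and so many genes, close matches are easily found.

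The rest of the eicosanoid pathway was described by 7 lists holding 53 genes, of which 46 were tested. Of these, 32 had a higher and 14 a lower mean with AZ876, with a median log2 fold change of 0.24 beside 0.00 for all genes tested. edgeR called 0 of them, while at an unadjusted p under 0.05 there were 9 on the higher and 2 on the lower side, against 7.98% and 6.74% of all genes. DESeq2 called 2, Pla2g2d and Pla2g3, and limma-voom called 0. All AZ876 libraries were above all injury libraries for 10 genes and below them for 3, against 10.2% and 8.64% of all genes.

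Upstream of the 10 enzymes, genes of arachidonate release went both ways, with 8 of 12 tested higher on average and a median log2 fold change of 0.25. Pla2g2d, a secreted phospholipase A2 gene, was at 2.84, 2.00 and 1.89 CPM with injury and 4.38, 4.57 and 9.56 CPM with AZ876, a difference of 1.46 ± 0.37 on the log2 scale (SE, n = 3 each). Pla2g3, the gene of another secreted phospholipase A2, was at 13.8, 23.5 and 9.62 CPM with injury and 6.36, 5.48 and 5.71 CPM with AZ876, a difference of −1.42 ± 0.33 on that scale (SE). Both had groups without overlap and an edgeR adjusted p of 0.330, where DESeq2 gave adjusted p-values of 0.0427 and 0.0139. At the level of the terminal synthases, 3 of 6 further genes of prostanoid synthesis were higher on average, with a median of −0.07. Prxl2b, the gene of a prostamide and prostaglandin F synthase, was at 61.3, 62.8 and 43.6 CPM with injury and 42.8, 40.1 and 32.5 CPM with AZ876, without overlap, and its log2 fold change was −0.54 ± 0.18 (SE).

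Downstream, all 6 genes of prostanoid breakdown and transport and 6 of 7 tested prostanoid receptor genes had positive log2 fold changes, with medians of 0.32 and 0.70. All 3 tested leukotriene receptor genes were higher on average, with a median of 0.56, while 1 of 4 other lipoxygenase genes was, with a median of −0.29. Genes of leukotriene conversion and transport had 5 of 8 higher and a median of 0.12. Cyp4f18, which in mice encodes an enzyme that oxidises leukotriene B4, was at 4.89, 6.67 and 7.28 CPM with injury and 9.10, 11.6 and 12.4 CPM with AZ876. Mgst2, the gene of a microsomal glutathione transferase that can make leukotriene C4, was at 1.13, 1.21 and 1.50 CPM with injury and 2.74, 2.32 and 1.92 CPM with AZ876. For both genes every AZ876 library was above every injury library, with mean differences of 0.82 ± 0.23 and 0.87 ± 0.29 on the log2 scale (SE, n = 3 each) and an edgeR adjusted p of 0.330 each. Mgst3, of the same family as Mgst2, overlapped between the groups, with a log2 fold change of −0.44 ± 0.21 (SE).

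**Figure D5:**
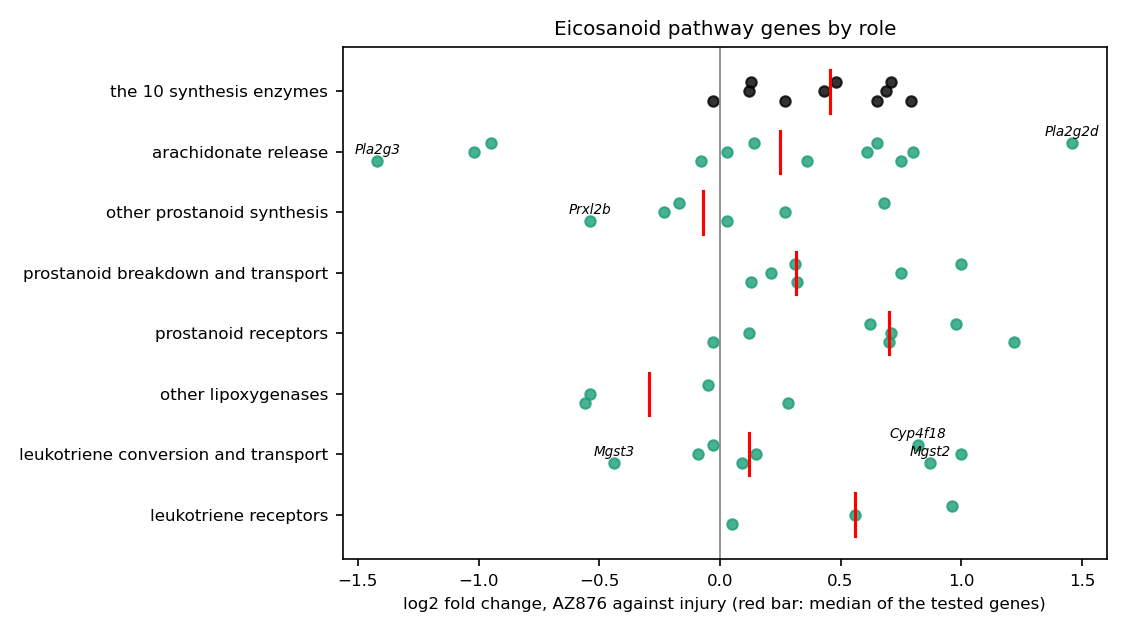
Log2 fold change of AZ876 against injury for the 10 synthesis enzymes (black) and for the tested genes of 7 other eicosanoid lists (green), 1 point per gene, with the list median as a red bar. The 10 enzymes lie between −0.03 and 0.79, and genes of arachidonate release spread from −1.42 for Pla2g3 to 1.46 for Pla2g2d.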

How the data were processed

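The authors deposited 1 table of raw read counts per gene, whole numbers with 1 column per sample and no pooling. Per the submitters' processing notes, the tools included fastp 0.23.0 and HISAT2 2.1.0. How reads were counted, the strand setting, the genome build and the annotation are not stated, and 2.8% of 51970 genes matched by identifier have the start that GENCODE M21 gives on GRCm38, so positions are printed as the table has them. Columns were assigned by the library names in the labels. Of 57010 rows, 148 symbols stood on several rows with identical counts, and 1 row each was kept.

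Genes were filtered with edgeR's filterByExpr (17599 kept), scaled by TMM and tested with edgeR's robust quasi-likelihood test without covariates (edgeR 4.0.16, R 4.3.3), with Benjamini-Hochberg adjustment and a threshold of 0.05. The SE was taken as the log2 fold change over √F. Log2 CPM used a prior count of 2, and ratios of counts a pseudocount of 0.5. Exon lengths are unions from GENCODE M21. Fits were tested on simulated data. Alternatives were DESeq2 1.42.0, limma-voom 3.58.1, other scalings and filters, a replicate block and leaving out each library. The labels name no separate animals, so p-values reflect only sample-to-sample spread, perhaps technical. Members and lists were chosen with earlier results of these data known. Named pathway genes are the 3 of smallest p in each direction.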

Additional observations from a re-analysis of the deposited data

How the results depend on the processing

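The 10 enzymes had 0 calls under all 13 alternatives. Of 130 log2 fold changes recomputed for them, 125 kept their direction and stayed on the same side of the threshold, and 5 reversed, all for Ltc4s: 0.14 with limma-voom, 0.07 with the replicate block, and 0.89, 0.27 and 0.01 when injury replicate 2, AZ876 replicate 1 or AZ876 replicate 2 was left out. Its values with 1 library left out ranged from −0.47 to 0.89, and its low counts limit it. Over all genes edgeR called 0, but 6 with no low-count filter, 2 with the replicate block and between 0 and 363 with 1 library left out, the last without AZ876 replicate 1, and DESeq2 called 177. Pathway genes had 2 calls with DESeq2 and 0 under the other alternatives. Members at an unadjusted p under 0.05 numbered 2, but 3 with DESeq2, where Ptges was added, and 4 with the replicate block. With limma-voom the 2 were Ptgds and Ptges, and with no low-count filter Ptgds and Ptgs2. With 1 library left out such members numbered 0 to 4. The 0 arose when either replicate numbered 2 was omitted, and the 4 when injury replicate 3 was. Members whose groups did not overlap numbered 4, but 3 with DESeq2 size factors, where Lta4h overlapped, and 4 to 7 with 1 library left out, 7 being without AZ876 replicate 1. Over all genes the main shares were 14.7% at that unadjusted p and 18.8% without overlap. For the alternatives these shares were not computed. Groups separate more easily for any gene when a library is left out, so the shifts cannot be read as particular to the members. The log2 ratio of Hpgds to Ptgds ranged from −0.15 to 0.47, that of Ltc4s to Lta4h from −0.34 to 0.66, and that of Ptgs1 to Ptgs2 from −0.90 to −0.30, with 1 library left out. The sign of the first reversed to −0.15 without AZ876 replicate 3. That of the second reversed to −0.34, −0.29, −0.01 and −0.34 on omitting injury replicate 1, injury replicate 3, AZ876 replicate 2 and AZ876 replicate 3 in turn. The cause was not tested.

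Whether replicate numbers pair the samples was not settled. Deviations from the group means correlated at 0.39, the highest of all pairs, for number 1, and at −0.14 and 0.32 for numbers 2 and 3. Injury replicate 3 correlated slightly better with AZ876 replicate 2 (0.34). Deviations of 3 libraries from their own mean are tied to one another, so these values cannot decide it. The replicate block gave adjusted p-values of 0.0839 for Hpgds and 0.13 for Ptges.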
